A study of Brassica oleracea var. italica with 2 samples.

Results

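The less conserved known miRNAs of broccoli (Brassica oleracea var. italica) were examined in shoot apexes of the heat-tolerant (HT) and heat-sensitive (HS) genotypes. Members were all known miRNA records with a raw count whose number in the miRNA name was greater than that of miR408, apart from miR827, miR857 and miR2911. This gave 33 of the 169 records with counts, and the other 136 known records served for comparison. The members carried 29 different numbers and 33 different sequences.

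For each genotype, 1 small RNA library was sequenced. The HT sample (E22, CNE plants, labelled with a high curd-forming capacity) and the HS sample (L22, CNL plants, labelled with a low one) both came from plants kept at 22 °C under 18 h light and 6 h dark. The labels give an age of 54 days, and the text of the study gives other ages. Both are described as isogenic lines, and the study's methods call their backgrounds nearly isogenic. The labels do not say how many plants went into a library, so a difference between HT and HS below compares 2 libraries and has no replicate check. The known-miRNA table holds no mRNA, and the shoot apex label could therefore not be set against marker genes.

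Plant miRNAs are cut from stem-loop precursors by DICER-LIKE1 and guide ARGONAUTE1 to complementary mRNAs, which are then cleaved or poorly translated. The strand that is mostly retained is called the mature miRNA and its partner in the duplex miRNA*. Low numbers in plant miRNA names mostly belong to families that were found early and are shared by many plants, and many of the later numbers belong to younger families known from 1 lineage, which are usually weakly expressed. The letters before the number name the species in which the sequence was registered in miRBase, such as ath for Arabidopsis thaliana and aly for Arabidopsis lyrata.

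The sequences below are those that broccoli reads gave in the deposited table, with T for U and from 5′ to 3′. The first set holds the members with 50 or more reads over both libraries, which carry most of the reads, with bases 2 to 8 (the seed) in capitals.
ath-miR824: tAGACCATttgtgagaaggga
aly-miR824*: cCTTCTCAtcgatggtctaga
bdi-miR5054: tCCCCACAgtcggcgcca

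The second set holds the 5 members with a common stretch, in capitals, which their different numbers do not show.
ath-miR829.1: tGCTCTGATACCAaatgatggaac
aly-miR845b*: ttGCTCTGATACCAaatgatg
ath-miR845a: cgGCTCTGATACCAattgatg
gma-miR1511: aacctgGCTCTGATACCAtg
rgl-miR5139: aaacctgGCTCTGATACCA

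The third set holds the miR482 and miR472 records, with the 14 nt shared by ptc-miR472b and vvi-miR482 in capitals. The ghr-miR482a sequence, shown after its values were seen, does not contain that stretch.
ptc-miR472b: ttttcccaACTCCACCCATTCC
vvi-miR482: tttttcctACTCCACCCATTCC
ghr-miR482a: ttttgcctactcctcccatacc

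The last set, also chosen after the values were seen, is the miR858 pair, with the 18 nt over which its strands are complementary in capitals.
ath-miR858: tTTCGTTGTCTGTTCGACCtt
aly-miR858*: GGTCGAACAGACAACGAAgat

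No seed was shared, since the 33 members had 33 different seeds and 0 of these stood on any of the other 136 records with counts.

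The members were few in reads. They summed to 904 reads in HT, or 33.4 TPM (reads scaled to all reads of the library), and to 956 reads in HS, or 36.4 TPM. These sums were 2.35% of the reads of the 169 counted records in HT (95% exact Clopper-Pearson interval 2.20 to 2.51) and 3.34% in HS (3.14 to 3.56), as intervals that cover counting error only. The total of the library was 27069903 reads for HT and 26253036 reads for HS, so that 1 read was worth 0.0369 TPM in HT and 0.0381 TPM in HS. In each library the median member had a single read, whereas the median of the other records was 0.646 TPM in HT and 0.419 TPM in HS. A single read in the libraries together was the whole count of 19 of the 33 members (57.6%) and of 16 of the 136 other records (11.8%).

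Most of the members were thus at the edge of detection. Fewer than 10 reads were counted for 25 members (75.8%), against 49 of the other records (36%), and 30 members stayed under 1 TPM in both libraries. Reads in both libraries were found for 13 members (39.4%), against 106 other records (77.9%). A further 10 members were found only in HT and 10 only in HS. None of these 20 had more than 2 reads, and a count of 0 allows up to 3 reads, or 0.111 TPM in HT and 0.114 TPM in HS, so presence in 1 library only was within counting error.

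**Figure D1:**
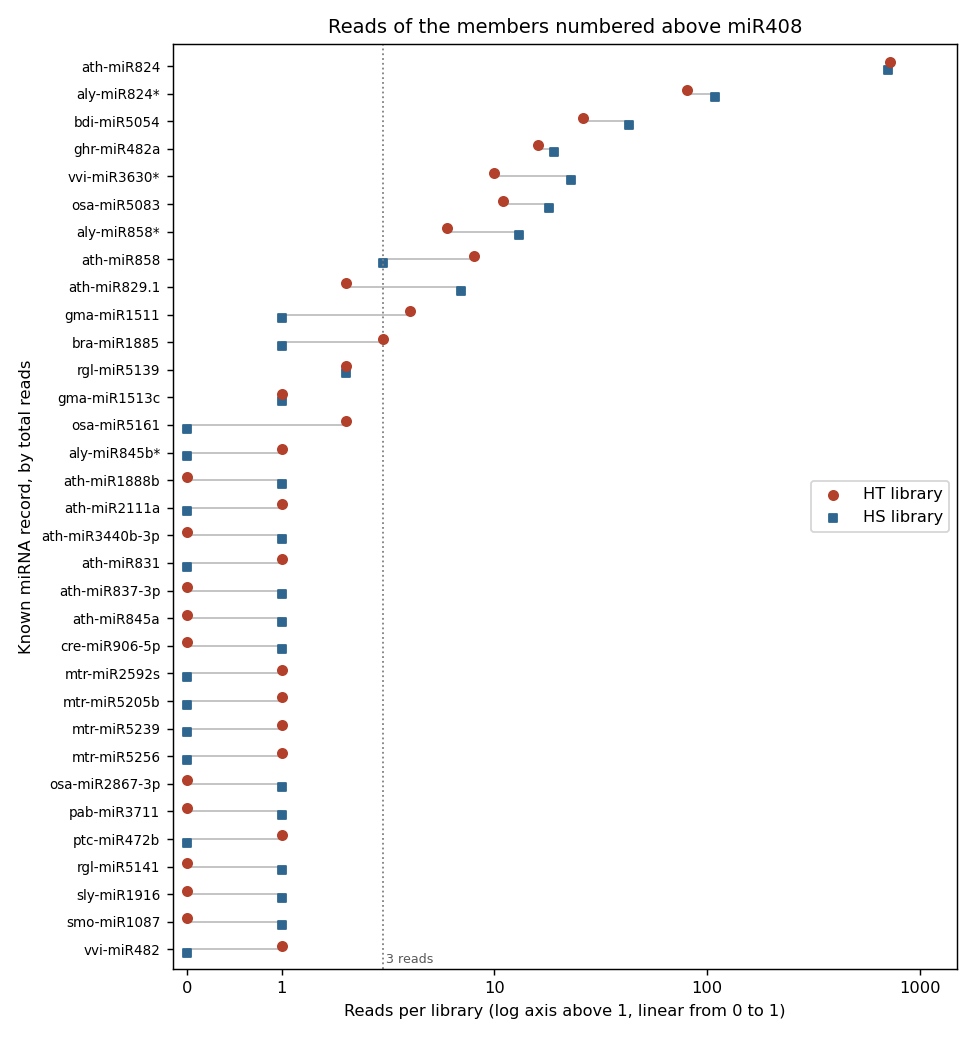
Reads of each of the 33 members in the HT library (circles) and in the HS library (squares), ordered by their total, on an axis that is logarithmic above 1 read. The records ath-miR824 (724 reads in HT and 706 in HS) and aly-miR824* (80 in HT and 109 in HS) lie far above the rest, and the lowest 19 records hold 1 read in 1 library; the dotted line marks 3 reads.

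Members assigned by family to transcription factor mRNAs held nearly all of the reads. In Arabidopsis, miR824 acts on AGAMOUS-LIKE16, a MADS-box factor with roles in stomatal development and flowering time. The record ath-miR824 had 724 reads (26.7 TPM) in HT and 706 reads (26.9 TPM) in HS, which made it number 15 of all known records in HT and number 13 in HS. The libraries thus had nearly the same level. The fold change (HT/HS) was 0.995 with a 95% interval of 0.895 to 1.1 (two-sided Fisher's exact test, p = 0.937). The broccoli sequence was identical to the Arabidopsis one, and the table placed it on the plus strand of chromosome A03 of the B. rapa sequence v1.1, at 25606861 to 25606882.

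The partner strand aly-miR824* had 80 reads (2.96 TPM) in HT and 109 reads (4.15 TPM) in HS. Its fold change was 0.712 (0.527 to 0.959), lower in HT at an unadjusted Fisher's exact p of 0.0239 but not past 0.05 after Benjamini-Hochberg adjustment over the 169 records (adjusted p = 0.0791). This depended on scaling to all reads. With the 3 other library sizes tried, the fold change of aly-miR824* was between 0.546 and 0.590. Each had an unadjusted Fisher's exact p under 0.001, and no adjusted p was computed with them. The listed position of aly-miR824*, on the plus strand of chromosome A01 at 7811384 to 7811405, is on another chromosome than that of ath-miR824. The longest unbroken stretch over which the 2 sequences are complementary was 8 nt. Another such stretch lies beyond a few unmatched bases in the sequences above, so this length understates how far they pair. Together the miR824 strands made up 88.9% of the member reads in HT (86.7 to 90.9) and 85.3% in HS (82.8 to 87.4).

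The share of the star strand within the pair does not depend on how the libraries are scaled. This ratio was looked at after the values had been seen, for the 2 pairs that the members hold. For miR824, the star strand was 9.95% of the pair in HT (7.97 to 12.2) and 13.4% in HS (11.1 to 15.9), with a two-sided Fisher's exact p of 0.0365, which became 0.0567 after Benjamini-Hochberg adjustment over both pairs.

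In Arabidopsis, miR858 acts on mRNAs of MYB transcription factors of flavonoid metabolism. The miR858 pair was much lower than the miR824 pair, and its strands went in opposite directions by value only. The record ath-miR858 had 8 reads in HT and 3 in HS, a fold change of 2.59 (0.621 to 15.1; Fisher's exact p = 0.227). In the other direction, aly-miR858* had 6 reads in HT and 13 in HS, a fold change of 0.448 (0.140 to 1.26; Fisher's exact p = 0.111). The star strand was 42.9% of the pair in HT (17.7 to 71.1) and 81.2% in HS (54.4 to 96.0), and Fisher's exact test did not separate the libraries (p = 0.0567, unchanged by the adjustment). At 14 reads in HT and 16 in HS, these intervals are wide, and they overlap from 54.4 to 71.1%. The listed positions lie on chromosomes A07 for ath-miR858 and A02 for aly-miR858*.

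Of the members assigned by family to disease-resistance genes, ghr-miR482a was the highest. Targets of the broccoli sequences were not examined. The miR482 and miR472 families and, in Brassica, miR1885 act on mRNAs of intracellular immune receptors of the nucleotide-binding leucine-rich repeat type. Reads of ghr-miR482a numbered 16 in HT and 19 in HS, with a fold change of 0.817 (0.393 to 1.68; Fisher's exact p = 0.614). The remaining records had 3 reads in HT and 1 in HS for bra-miR1885, and 1 read in HT and 0 in HS for each of ptc-miR472b and vvi-miR482. As a group, the 4 records had 21 reads in HT and 20 in HS, so no difference was detectable at this depth (ratio of summed levels 1.02, interval 0.525 to 1.98). All 4 had 22 nt, a length at which plant miRNAs can trigger secondary small RNAs from their targets, and they were 4 of the 6 members of that length.

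The miR482 and miR472 sequences resemble each other beyond their seeds, and bra-miR1885 was not compared with them. Of the 22 positions of vvi-miR482, 20 were identical in ptc-miR472b and 19 in ghr-miR482a. The table placed ghr-miR482a and vvi-miR482 on chromosome A08, on opposite strands, with their starts 6515 nt apart. Relative to the registered sequences, the broccoli sequence of ghr-miR482a had C2T and T5G, that of vvi-miR482 had C2T and T14A, and that of ptc-miR472b had C20T (registered base, position from the 5′ end, broccoli base).

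Among the members for which no role was assigned, 3 had at least 10 reads, and all were lower in HT by their values. The 18-nt record bdi-miR5054, the shortest of the members, had 26 reads (0.96 TPM) in HT and 43 (1.64 TPM) in HS. Its fold change was 0.586 (0.346 to 0.976; Fisher's exact p = 0.0306, adjusted p = 0.0957). The record vvi-miR3630* had 10 reads in HT and 23 in HS, a fold change of 0.422 (0.179 to 0.921; Fisher's exact p = 0.0227, adjusted p = 0.0767). The record osa-miR5083 had 11 reads in HT and 18 in HS, a fold change of 0.593 (0.253 to 1.33; Fisher's exact p = 0.195).

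These 3 are named after a grass or grapevine. The bdi-miR5054 sequence, on the minus strand of chromosome A08 at 7064045 to 7064063, differed from the Brachypodium one by G8A, a base of the seed. That of osa-miR5083 was identical to the rice sequence over its 20 nt. For vvi-miR3630*, an uncounted record without the asterisk, vvi-miR3630, carried the same sequence at the same position, so the strand named by the asterisk is uncertain. The same held for aly-miR845b* and an uncounted aly-miR845b record, and for ath-miR2111a and an uncounted ath-miR2111a* record.

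The 5 records that contain GCTCTGATACCA had 9 reads in HT and 11 in HS. In Arabidopsis, miR845 matches the site at which a transfer RNA primes reverse transcription of long terminal repeat retrotransposons, and the others were given no role. The 5 sequences were not compared with transfer RNA sequences, so an origin of these reads from a transfer RNA was not tested. By record, ath-miR829.1 had 2 reads in HT and 7 in HS, gma-miR1511 had 4 in HT and 1 in HS, and rgl-miR5139 had 2 in each library. The record aly-miR845b* had 1 read in HT and 0 in HS, and ath-miR845a had 0 in HT and 1 in HS. The 12-nt stretch began at base 2 in ath-miR829.1, base 3 in both miR845 records, base 7 in gma-miR1511 and base 8 in rgl-miR5139. It was found in 0 of the 136 other counted sequences and in 14 of the 1400 registered sequences listed in the table (1%), searched on the strand as given. These 14 include the registered sequences of the 5 members themselves. The stretch was picked because the members share it, so these counts do not test how unusual it is. Longer stretches were shared by ath-miR829.1 and aly-miR845b* (20 nt) and by gma-miR1511 and rgl-miR5139 (18 nt), so these are not independent sequences.

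The other members were all low. The record gma-miR1513c had 1 read in each library and osa-miR5161 had 2 reads in HT and 0 in HS. A single read in HT and 0 in HS were counted for ath-miR2111a, which belongs to a family induced by phosphate starvation in Arabidopsis, and for ath-miR831, mtr-miR2592s, mtr-miR5205b, mtr-miR5239 and mtr-miR5256. A count of 0 in HT and 1 in HS was given for ath-miR1888b, ath-miR3440b-3p, ath-miR837-3p, cre-miR906-5p, osa-miR2867-3p, pab-miR3711, rgl-miR5141, sly-miR1916 and smo-miR1087. With at most 2 reads in a library, no fold change is given for these, and no difference between HT and HS was detectable.

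None of the members differed between HT and HS by the thresholds used for the whole table, an unadjusted Fisher's exact p under 0.001 with a fold change over 2. The count was 0 of 33, whereas 12.4% of all 169 known records passed. With the totals of these libraries, 11 reads are enough for a record to pass whichever library holds them all, and 8 members reached this count. Of those 8 members, 0 passed, against 22.8% of all records with as many reads. At an unadjusted p under 0.05, 3 members were past the threshold (33.1% of all records were), namely aly-miR824*, bdi-miR5054 and vvi-miR3630*, each lower in HT, and 0 members had an adjusted p under 0.05 (27.2% of all records did). These last 2 shares are not matched for depth. A record with a single read cannot reach such a p, and 19 of the 33 members but only 16 of the 136 other records had a single read. All 3 members past 0.05 were among the 8 with at least 10 reads.

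By size of the difference alone, the 8 members with at least 10 reads were not set apart. A fold change over 2 in either direction was found for 3 of 8 (37.5%) and for 35.8% of all records with as many reads. One of the 3, ath-miR858, was over 2-fold higher in HT (12.5% of the 8, against 24.2% of all records with as many reads). The other 2, vvi-miR3630* and aly-miR858*, were over 2-fold lower in HT (25%, against 11.6%).

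The directions were less balanced. Of the 8 members, 1 was higher and 7 were lower in HT by value, whereas 55 of the other records with at least 10 reads were higher and 32 were lower. The 7 include ath-miR824, with nearly the same level in both libraries (fold change 0.995). Only 3 of the 7 had an unadjusted Fisher's exact p under 0.05. The median log2 fold change was -0.62 for the members (lowest -1.25, highest 1.37) and 0.31 for all 94 records with at least 10 reads that had reads in both libraries. These medians are descriptions, since the members include strands of the same miRNA and the libraries are single.

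Over all members, the ratio of summed levels (HT/HS) was 0.917 (0.836 to 1.01), and for the other known records it was 1.32 (1.30 to 1.34). The first ratio followed ath-miR824. Without that record it was 0.698 (0.573 to 0.849), and without both miR824 strands, an alternative added after seeing the data, it was 0.688 (0.527 to 0.895). Because the known records as a whole had more reads in HT, scaling to them moved every log2 fold change by -0.38, and the summed ratio of the members then became 0.703 (0.641 to 0.771). Under the same scaling ath-miR824 had a fold change of 0.763 (Fisher's exact p = 2.4e-07), still less than 2-fold, while 7 of the 8 members were lower in HT under this scaling as under the main one.

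**Figure D2:**
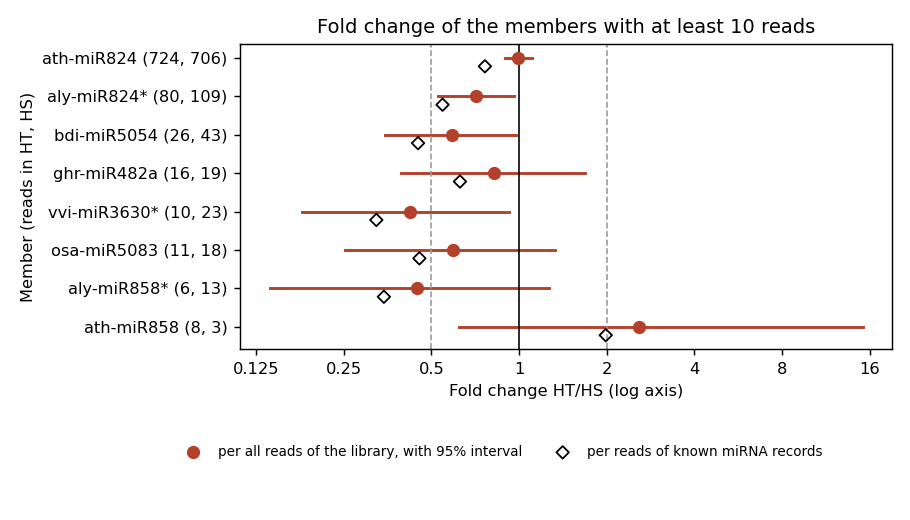
Fold change (HT/HS, logarithmic axis) of the 8 members with at least 10 reads, with the reads in HT and then in HS beside each name. Filled points with 95% intervals are scaled to all reads of a library and open diamonds to the reads of known miRNA records; dashed lines mark a 2-fold difference. By the filled points, 7 members lie to the left of 1, ath-miR824 by very little (0.995), and only ath-miR858 (2.59) lies to the right.

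By the species in the name, 13 of the 33 members (39.4%) came from Brassicaceae, compared with 44.9% of the other records. These 13 held 89.7% of the member reads, 826 in HT and 843 in HS (ratio 0.95, interval 0.862 to 1.05). A further 13 (39.4%, against 26.5% of the others) were named after other eudicots and had 39 reads in HT and 48 in HS (0.788, 0.503 to 1.23). The 4 monocot names (12.1%, against 17.6%) had 39 reads in HT and 62 in HS (0.610, 0.398 to 0.925), and most of these were bdi-miR5054. The remaining 3 were named after the alga Chlamydomonas (cre), the Norway spruce (pab) and the spikemoss Selaginella (smo), with 0 reads in HT and 3 in HS.

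In all, 15 species prefixes occurred, 8 of them on 1 member. The prefix ath was the most frequent, with 9 members and 736 reads in HT and 720 in HS. The 4 mtr records, from the legume Medicago, had 1 read each and were all found in HT. The single bra record, bra-miR1885, was the only member registered in the genus Brassica.

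The lengths of the members were more spread than those of the other records. A length of 21 nt was found for 13 members (39.4%, exact interval 22.9 to 57.9), against 85 of the 136 other records (62.5%). The rest were 7 members of 20 nt, 6 of 22 nt, 3 of 24 nt, 2 of 19 nt and 1 each of 18 and 23 nt. Counted by reads, 21 nt prevailed, with 90.8% of the member reads in HT and 87.6% in HS, against 84.1% in HT and 80.8% in HS for the other records. That share was set by miR824 and miR824*, both of 21 nt.

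**Figure D3:**
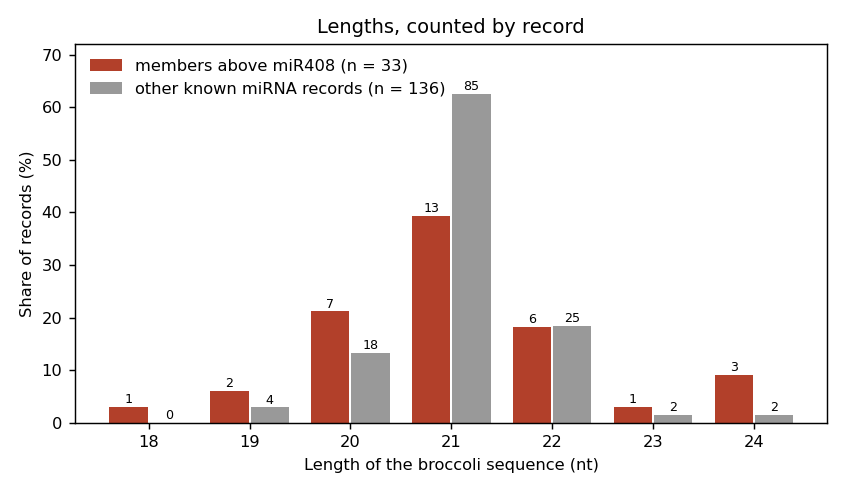
Lengths of the broccoli sequences, as a share of the 33 members (left bar of each pair) and of the 136 other known records (right bar), with the number of records above each bar. The share of 21 nt was 39.4% of the members and 62.5% of the others.

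A 5′ U, written T here and the first base that ARGONAUTE1 prefers, opened 19 members (57.6%) and 72 other records (52.9%). An A opened 7 members, a C 6 and a G 1 (3.03%, aly-miR858*), whereas a G opened 38 of the other records (27.9%).

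The members were less like their registered sequences than the other records were. Identical sequences were found for 9 members (27.3%), against 61 other records (44.9%). By contrast, 2 or more bases were changed, inserted or deleted in 15 members (45.5%) and in 20 other records (14.7%). Of the 17 members that differed by substitutions only, 10 had one in the seed, compared with 19 of 72 other records. An insertion or deletion was needed to match 7 members and 3 other records. The identical members nevertheless held 89.8% of the member reads, since ath-miR824 and aly-miR824* are among them, whereas identical sequences held 25.8% of the reads of the other records.

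The highest counts were found among members close to the registered sequence. Identical members had 1 to 1430 reads (median 4), and those with 1 changed base had 1 to 69 reads (median 1). With 2 changes the range was 1 to 35 reads (median 1), and the 3 members with 3 changes, ath-miR1888b, sly-miR1916 and smo-miR1087, had 1 read each. The top counts are those of the miR824 records, and of the members with at least 10 reads 4 were identical and 4 changed. The other records did not show this order, with a median of 26 reads when identical and 71 with 1 changed base. Brassicaceae names were found for 6 of the 9 identical members. Of the broccoli sequences, 30 of 33 were identical to the B. rapa sequence given at the listed position.

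**Figure D4:**
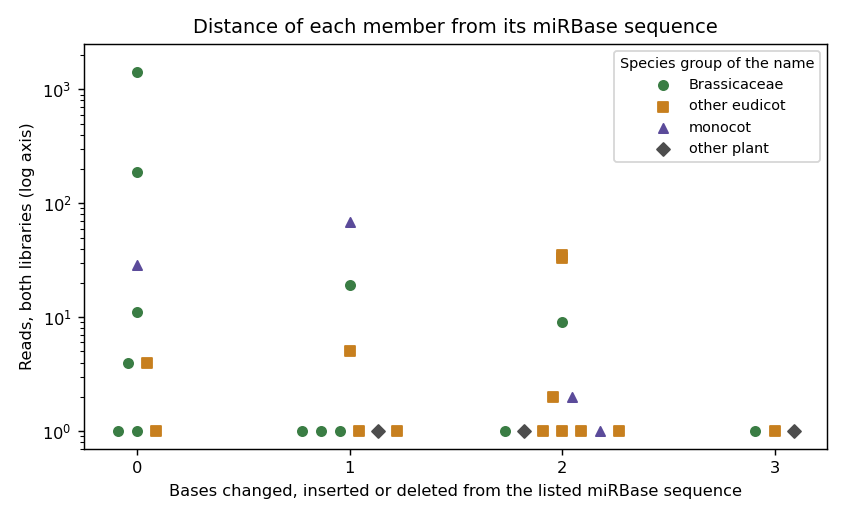
Reads of each member in the libraries together (logarithmic axis) against the number of bases changed, inserted or deleted from the registered miRBase sequence, with the symbol giving the species group of the name. Points with equal values are spread sideways. The 9 identical members reach 1430 reads, and the 3 members with 3 changes have 1 read each.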

How the data were processed

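Small RNA of 18 to 30 nt from shoot apexes was sequenced in 1 library per genotype. The authors removed adaptors and reads of other non-coding RNAs and matched the rest to plant miRNAs of miRBase (release 18 in the table header, other releases in other sources) and to the B. rapa sequence v1.1. They searched miRBase with BLASTN. The tool that placed reads on the genome is not given in the sources used here. The deposited values are raw counts (whole reads per record and library) and TPM, which the authors computed from all reads of a library. Cells with quoted line breaks were joined before reading. The authors' fold changes and p-values, and the tables of candidate miRNAs, were not used.

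Library totals were derived from the deposited counts and TPM. Of 1400 records, 169 had counts. Reads of each record and remaining reads of each library were compared by Fisher's exact test, two-sided (SciPy 1.17.1, Python 3.11.15), adjusted by Benjamini-Hochberg over the 169. Intervals are exact Clopper-Pearson intervals (95%) and cover counting error only, since PCR reads are not independent molecules. The floor was 3 reads. Distances from miRBase are edit distances. The test was checked on simulated counts, with changes placed only in records with at least 50 reads and counting error as the only noise. Recovery of changes in members with fewer reads was not checked. Members with at least 10 reads were named with fold changes, others with reads only. Coordinates are as the table gives them, where end minus start equals the length, so 1 end may be off by 1 base. Members and lists were chosen with earlier results of these data known. Alternatives changed the library size, the minimum of reads, the thresholds and the counting of members.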

Additional observations from a re-analysis of the deposited data

How the results depend on the processing

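No member was past both thresholds under any library size tried, and 1 was, vvi-miR3630*, with an unadjusted p under 0.05 in place of 0.001. Members past 2-fold numbered 5 with the median of ratios and 5 with the trimmed mean of log2 ratios as library size, against 3 as reported. They numbered 0 with at least 50 reads and 26 with no minimum, which counts records with 1 read against 0. The summed ratio (HT/HS) was 0.703 with the sum of known counts, 0.709 with the median of ratios and 0.760 with the trimmed mean, and it was 0.698 without ath-miR824 and 0.688 without both miR824 records. The share of 21 nt was 90.8% weighted by HT reads and 87.6% by HS reads. Among members with at least 10 reads the median level was 0.499 TPM in HT and 0.7999 TPM in HS. With the 3 other library sizes, 5 or 6 of the 8 members had an unadjusted Fisher's exact p under 0.05, against 3 as reported. With the sum of known counts, 4 members were past 2-fold, where bdi-miR5054 (0.450) and osa-miR5083 (0.454) came to lie past it and ath-miR858 (1.98) no longer did. No fold change of the 8 members changed direction, and none had a p under 0.001 together with a 2-fold difference. No paired analysis was possible because each genotype has 1 library. Depth limits the 25 members with fewer than 11 reads, and nothing here measures variation between plants.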
